A study of Homo sapiens with 32 samples.

Results

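Nxf1 is the receptor that carries mRNA through the nuclear pore. It is known to bind RNA weakly on its own and to receive mRNA from adaptor proteins of TREX, the complex that couples transcription and processing to export, and with its cofactor Nxt1 it then passes the phenylalanine-glycine repeats of the nucleoporins. RNAs that have their own export routes, such as tRNA, or that stay in the nucleus, such as most snoRNAs and the lncRNAs of nuclear bodies, are not classical cargoes.

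The Nxf1 iCLIP libraries were set against the FLAG-only Control. They were chosen by their labels as the 16 of 32 sequencing runs that carry the names Nxf1-FLAG or Cntrl-FLAG, and the authors merged these runs into 6 libraries, 3 for each group. In iCLIP, RNA and protein are crosslinked by UV light in living cells, the protein is immunoprecipitated, and the cDNA usually ends next to the crosslinked base. A deduplicated cDNA placed at that base is called a tag here. The labels give HEK293T as the cell line of both groups, and the growth protocol and the study's methods name FlpIn-293, an established line of human embryonic kidney origin that takes a transgene at a set recombination site. In both the antibody was anti-FLAG. The Nxf1 cells expressed Nxf1-FLAG, induced with tetracycline at 5 ng/mL for 48 h, and also kept their own NXF1 gene. The Control cells expressed an empty FLAG construct, for which the labels give no dose. Each group rests on a single stable line, and nothing in the labels says that the 3 libraries of a line came from separate cultures, so p-values measure the spread between libraries, which may be technical.

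Depth was low and uneven. Leaving out the mitochondrial chromosome (0.271% to 0.546% of tags), the Nxf1 libraries held 8105, 118540 and 178745 tags for replicates 1, 2 and 3, and the Control libraries 6998, 46384 and 36804. In both groups replicate 1 had the fewest tags, and a count of 0 there allows up to 370 CPM (tags scaled to a common library total, excluding the mitochondrial chromosome) in Nxf1 and 429 CPM in the Control at 3 tags, against 16.8 CPM in Nxf1 replicate 3. Replicate 2 was run on HiSeq lanes 5 and 6 and replicates 1 and 3 on lanes 7 and 8 in both groups. Of 7 marker genes of HEK293 cells, 6 had tags, and of 6 markers of other cell types (HBB, ALB, PTPRC, INS, MYH7 and GFAP) 5 were at 0 in all 6 libraries and MYH7 had 1 tag.

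The tagged gene was examined first. NXF1 held 1, 39 and 32 tags in the Nxf1 libraries and 2, 2 and 0 tags in the Control libraries. In CPM these were 123, 329 and 179 against 286, 43.1 and 0, so that replicate 2 alone of the Nxf1 libraries was above every Control library. CDS took 24 and 18 of the tags in Nxf1 replicates 2 and 3 and none in the Control. Intron 10 of the canonical transcript, which has 20 introns, took 13 and 10 tags there, against 1 tag in the Control. CDS tags of the endogenous mRNA and of the transgene cannot be told apart. In the fit over genes with at least 10 tags, described below, NXF1 was higher in the Nxf1 libraries by 2.4 ± 0.87 on the log2 scale (SE), with an adjusted p of 0.785 (edgeR quasi-likelihood test, Benjamini-Hochberg).

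The most heavily tagged single bases were largely common to Nxf1 and the Control. They are shown because they describe the background that both immunoprecipitations carried. Each line gives 21 bases of GRCh37 around the crosslinked base on the strand of the tags, 5′ to 3′, with that base in capitals. The first 5 held the most Nxf1 tags and the next 4 the most Control tags, and the base on chromosome 5 at the position 71146741 was on both lists.
HFM1 intron, chr1:91853139-91853159, minus strand: aactcatcatTtccggggaca
Outside genes, chr12:127650918-127650938, minus strand: gaacgcctctTaagtcagaat
Outside genes, chr16:33963644-33963664, plus strand: aaagtctttgGgtttttaggt
Outside genes, chr5:71146731-71146751, plus strand: tagaaatttcTtccagtgcgg
Outside genes, chr17:33478364-33478384, minus strand: tacaaaaattAgaatccccgc
RAPGEF6 intron, chr5:130851790-130851810, minus strand: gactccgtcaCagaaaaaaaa
ANKRD30BL, chr2:133012617-133012637, minus strand: ccagtctttgGgtttttgggt
RBFOX1 intron, chr16:6400432-6400452, plus strand: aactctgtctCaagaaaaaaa
ENSG00000283907 intron, chr19:36066680-36066700, plus strand: atgtgagtgcCttagaggtct

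The base in the intron of HFM1, a DNA helicase gene of meiosis, had 7, 23 and 21 Nxf1 tags and 2, 13 and 2 Control tags. The base on chromosome 12 had 2, 20 and 28 Nxf1 tags and 2, 13 and 2 Control tags. The base on chromosome 5 outside genes had 0, 20 and 19 Nxf1 tags and 2, 11 and 9 Control tags. None of these bases was particular to 1 group, since every one of the 9 had tags in both. The RAPGEF6 base differed between replicates more than between groups, with 0, 7 and 17 Nxf1 tags and 0, 1 and 24 Control tags. It held 38.9% of all tags in that gene. The RBFOX1 base behaved in the same way, with 0, 6 and 19 Nxf1 tags and 0, 0 and 21 Control tags. Only uniquely mapped reads were kept by the authors, so tags at bases with close copies elsewhere are uncertain. Between 97.6% and 99.5% of the bases of an Nxf1 library held 1 tag. The most tagged base of SMG1 had 0, 0 and 3 Nxf1 tags and no Control tag, and that of the lncRNA ENSG00000270103 had 0, 3 and 1 Nxf1 tags and 0, 0 and 1 Control tags. These windows are shown as examples from genes higher with Nxf1, among which EEF2 also had a base with 3 tags.
SMG1 intron, chr16:18895535-18895555, minus strand: tttaatttggAttttttggtg
ENSG00000270103 exon, chr1:28975189-28975209, plus strand: cggaagcataAttttttggta

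The first question was which regions of transcripts separate the export receptor from the background. The 3′ UTR took a larger share of Nxf1 tags than of Control tags at each replicate number. It held 21.3%, 14.2% and 6.83% of the tags in Nxf1 replicates 1, 2 and 3 (Wilson 95% intervals 20.4 to 22.2, 13.98 to 14.38 and 6.71 to 6.95). In the Control it held 10.8%, 6.10% and 4.08% (10.1 to 11.5, 5.88 to 6.32 and 3.88 to 4.28). These intervals cover counting error only. The share was thus 1.98, 2.33 and 1.68 times the Control value of the same number, but in both groups replicate 1 was the highest and replicate 3 the lowest, and Nxf1 replicate 3 lay below Control replicate 1. The means were 14.1% ± 7.25 (SD, n = 3) and 6.99% ± 3.44 (SD, n = 3), which did not differ beyond the spread between libraries (exact permutation test, two-sided, p = 0.2, adjusted p = 0.873 over 24 measures). With 3 libraries against 3, such a test cannot give a p below 0.1.

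**Figure D1:**
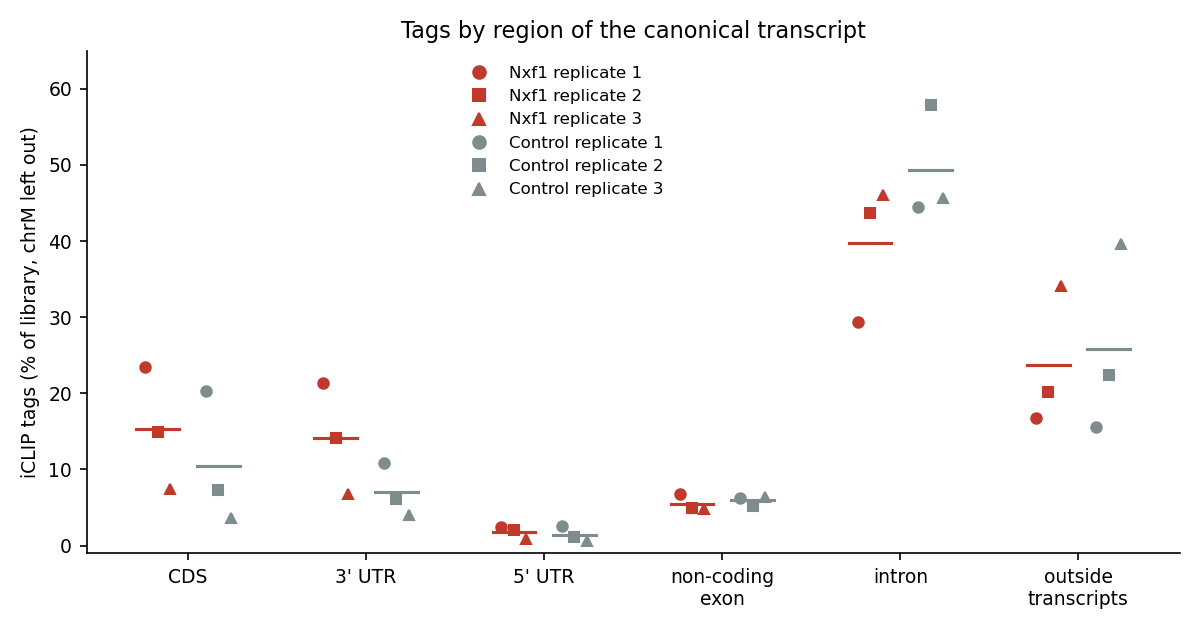
Share of iCLIP tags of each library in 6 regions of the canonical transcript, in percent of tags without the mitochondrial chromosome. Points are libraries, with 1 marker shape for each replicate number, and bars are means of 3 libraries. The 3′ UTR and CDS points of Nxf1 lie above the Control point of the same shape, while the 2 groups overlap.

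Coding sequence followed the same order. CDS took 23.5%, 14.9% and 7.37% of Nxf1 tags and 20.3%, 7.36% and 3.65% of Control tags, or 1.16, 2.03 and 2.02 times the Control share within numbers. The group means of 15.3% ± 8.07 (SD, n = 3) and 10.4% ± 8.75 (SD, n = 3) did not differ beyond the spread (exact permutation test, p = 0.5). Exons together took 64.2%, 43.6% and 27.1% of the tags in protein-coding genes with Nxf1, against 45.4%, 21.4% and 17.2% in the Control. At each number Nxf1 was the higher, by 1.41, 2.04 and 1.57 times, whereas across numbers the groups overlapped (exact permutation test, p = 0.3). Introns held 29.3%, 43.7% and 46.0% of Nxf1 tags and 44.4%, 57.9% and 45.6% of Control tags. The intron share was therefore lower with Nxf1 in replicates 1 and 2 and about level in replicate 3 (1.01 times).

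Tags were also taken per base of 3′ UTR and CDS, with lengths summed over all canonical coding transcripts, whether expressed or not. On this scale the 3′ UTR was slightly below CDS in each Nxf1 library. The log2 ratio of 3′ UTR to CDS tag density was -0.15, -0.09 and -0.12 in the Nxf1 libraries, a narrow range. In the Control it was -0.93, -0.29 and 0.15, a wider range. The difference of 0.23 between the means was within this spread (exact permutation test, p = 0.7).

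Along the spliced mRNA the Nxf1 libraries had nearly the same profile. The first 20% of its length took 23%, 23.8% and 23.7% of mRNA exon tags with Nxf1, and 32.5%, 27.1% and 22.8% in the Control. Control replicates 1 and 2 were thus higher than every Nxf1 library at the 5′ end, and Control replicate 3 was lower. The means were 23.5% ± 0.452 (SD, n = 3) and 27.5% ± 4.91 (SD, n = 3) (exact permutation test, p = 0.4). The last 20% took 19.3%, 16.7% and 16.2% with Nxf1 and 13.5%, 16.7% and 17.5% in the Control, so that the direction depended on replicate 1. Last exons held 51.0%, 50.1% and 49.7% of mRNA exon tags with Nxf1 and 35.8%, 45.3% and 52.6% in the Control. Middle exons of the Nxf1 libraries held 40.4%, 39.7% and 40.4%, again within a narrower range than the Control values of 54.5%, 43.98% and 35.1%.

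**Figure D2:**
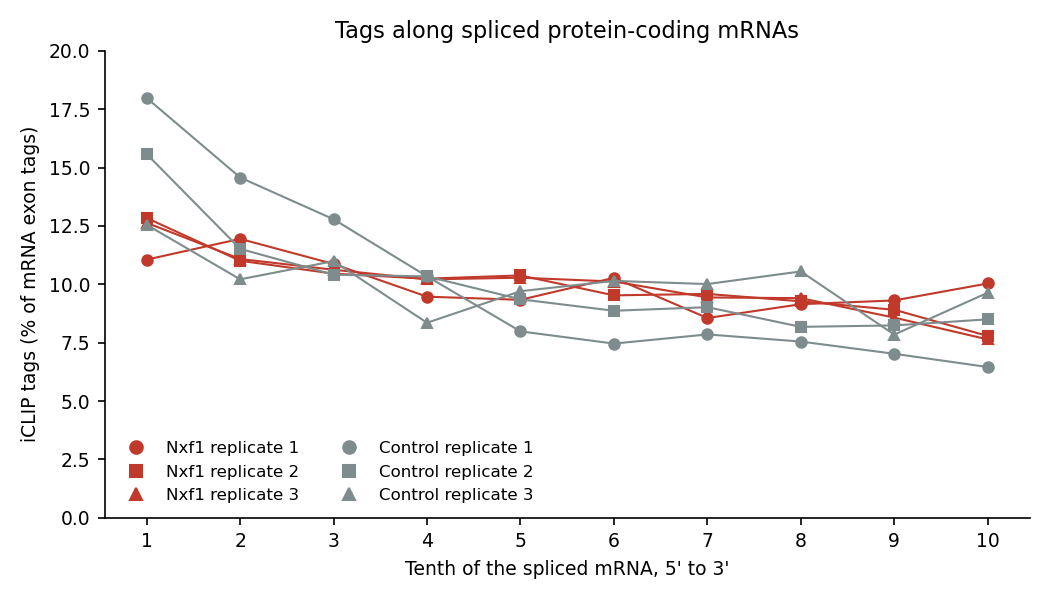
Share of mRNA exon tags in each of 10 equal parts of the spliced canonical mRNA, 5′ to 3′, for each of the 6 libraries. The 3 Nxf1 lines run close together, from 11.1% to 12.8% in the first part and 7.64% to 10.0% in the last, and Control replicate 1 starts at 18.0% and ends at 6.46%.

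Position within introns did not separate the groups. The first intron held 27.4%, 27.9% and 29.1% of intron tags with Nxf1 and 27.2%, 25.2% and 27.5% in the Control, a difference of 1.47 percentage points (exact permutation test, p = 0.2). Tags within 100 nt of the 5′ splice site made up 3.32% ± 0.825 (SD, n = 3) with Nxf1 and 2.92% ± 0.772 (SD, n = 3) in the Control. For the 3′ splice site the values were 4.52% ± 0.874 (SD, n = 3) and 4.77% ± 1.91 (SD, n = 3), and neither pair differed beyond the spread (exact permutation tests, p = 0.7 and p = 1).

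The next question was which RNA classes differ. The snoRNA and scaRNA genes, whose RNAs guide modification of rRNA and snRNA in the nucleolus and Cajal bodies, were lower with Nxf1 in all 3 libraries. They held 0.259%, 0.262% and 0.159% of Nxf1 tags against 0.457%, 0.791% and 0.443% of Control tags. These groups did not overlap, which was so for 1 of the 24 measures, and the exact permutation p was the smallest the design allows (p = 0.1, adjusted p = 0.873). The counts behind them were small, 21, 310 and 285 tags with Nxf1 and 32, 367 and 163 in the Control. Most lay in snoRNAs nested in other genes. As genes counted alone, SNORD13, which guides acetylation of 18S rRNA, had 1, 9 and 7 Nxf1 tags and 2, 11 and 6 Control tags. SNORD3A, the U3 snoRNA of 18S rRNA processing, had 2, 18 and 14 against 2, 7 and 3, and its CPM ranges overlapped.

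Protein-coding genes took 77.0%, 75.2% and 59.8% of Nxf1 tags and 78.1%, 72.0% and 52.5% of Control tags, and these ranges overlapped (exact permutation test, p = 0.7). lncRNA genes took 5.71%, 5.28% and 6.79% with Nxf1 and 6.17%, 6.56% and 7.40% in the Control, lower with Nxf1 at each number (exact permutation test, p = 0.3). Antisense tags of protein-coding genes (5.52% ± 3.07 with Nxf1, 5.97% ± 4.10 in the Control, SD, n = 3) and tags outside genes (14.2% ± 5.72 and 15.5% ± 7.93, SD, n = 3) differed between the groups by less than the SD within either. The class means were within the spread between libraries also for snRNA (1.11% ± 0.0254 and 1.38% ± 0.562, SD, n = 3), rRNA (0.703% ± 0.556 and 0.894% ± 0.286, SD, n = 3), miscellaneous RNA (0.994% ± 0.206 and 0.853% ± 0.265, SD, n = 3) and pseudogenes (0.519% ± 0.145 and 0.468% ± 0.0790, SD, n = 3). Of all 24 measures, 8 had the same sign at the 3 numbers. The numbers are not known to be pairs, and some measures would have 1 sign at all 3 without any difference. The count is therefore a description only. Many shares differed between replicate numbers in the same way in both groups, and the part of depth and lanes in this was not tested.

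Single genes were then tested on their tag counts. After the filter on low counts 314 genes were tested, 289 of them protein-coding, and 0 passed an adjusted p of 0.05 (0% of those tested, edgeR). At an unadjusted p under 0.05, 16 genes were higher with Nxf1 (5.1%) and 4 were lower (1.27%), and DESeq2, which also called 0, had 7 higher and 3 lower. Genes whose 3 Nxf1 CPM values all exceeded the Control values numbered 5 (1.59%), and 38 had them all below (12.1%). Such counts take a 0 as 0, although in replicate 1 it allows up to 370 CPM with Nxf1 and 429 CPM in the Control. By CPM more genes were lower and by the fit more were higher. On the CPM scale the median gene tested lay at -0.23 (log2), and the TMM scaling of the fit shifted it by 0.24, to 0.01. With DESeq2's size factors in edgeR the split at an unadjusted p under 0.05 was 13 higher and 7 lower. The log2 fold changes below are on the TMM scale, and the genes are the 10 with the smallest p in each direction. None passed, so they are given as values only.

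SPEN, a large transcriptional repressor of the Notch and nuclear receptor pathways, had 10, 77 and 90 tags in the Nxf1 libraries and 0, 18 and 5 in the Control. In CPM these were 1234, 650 and 504 against 0, 388 and 136, without overlap. The log2 difference was 1.72 ± 0.54 (SE), with an adjusted p of 0.481 (edgeR), and it was 2.61 without Control replicate 2. Its tags fell in CDS and introns alike, at 49.4% and 43.7% of the tags in its transcript with Nxf1 and 47.8% each in the Control. IRS4, an insulin receptor substrate that is abundant in HEK293 cells and whose gene is encoded in few exons, had 54, 74 and 74 Nxf1 tags against 6, 14 and 15. Nxf1 replicate 1 stood far above the rest at 6663 CPM, and the other Nxf1 values of 624 and 414 overlapped the Control values of 857, 302 and 408. The log2 difference of 2.26 ± 0.73 (SE) had an adjusted p of 0.481 (edgeR), and it was 0.54 without Nxf1 replicate 1.

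KMT2D, a histone H3 lysine 4 methyltransferase with a long coding sequence, had 15, 65 and 43 Nxf1 tags against 4, 9 and 4, and a log2 difference of 1.73 ± 0.62 (SE). CDS held 74.0% of its Nxf1 tags. SMG1, the kinase that phosphorylates UPF1 in nonsense-mediated decay, had 6, 51 and 52 tags against 3, 9 and 1. Both genes were higher with Nxf1 at each number, and in both the CPM ranges overlapped. DYRK1A, a protein kinase gene on chromosome 21, had 3, 39 and 44 tags against 1, 5 and 4, and its CPM values of 370, 329 and 246 lay above the Control values of 143, 108 and 109. DYRK1A tags were mostly intronic, at 69.8% with Nxf1. NUP153, a nucleoporin of the nuclear basket to which the export receptor binds, had 4, 52 and 48 tags against 1, 11 and 4, again without overlap in CPM (log2 difference 1.29 ± 0.54, SE, adjusted p = 0.595).

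USP22, the deubiquitinase of the SAGA coactivator, was the other gene of this set without overlap, with 3, 38 and 41 tags against 1, 7 and 4. EEF2, the translation elongation factor that moves the ribosome along, had 3, 83 and 49 against 3, 8 and 6 (log2 difference 1.41, and 0.69 without Nxf1 replicate 2), and 65.2% of its Nxf1 tags were in CDS. GALNT2, an enzyme that starts O-glycosylation, had 1, 35 and 43 against 2, 6 and 1. In both genes Control replicate 1 lay above Nxf1 replicate 1 in CPM. ENSG00000270103, an annotated lncRNA of chromosome 1 (28975112 to 28975242, plus strand) whose most tagged base is shown above, had 4, 57 and 42 against 2, 4 and 6. RefSeq places RNU11, the gene of the U11 snRNA of the minor spliceosome, within TAF12-DT on chromosome 1, which is also the neighbour of this entry. The entry may therefore be the U11 gene, and its class as a lncRNA is uncertain. Its tags were spread over the exon, with 4.35% of them at that base.

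The genes lower with Nxf1 were, apart from the lncRNA NEAT1, protein-coding and tagged mostly in introns where their canonical transcript held tags. TENM1, which codes for a transmembrane protein of neurons and spans chromosome X from 123509753 to 124338161, had 0, 3 and 29 Nxf1 tags and 3, 18 and 15 Control tags. The Nxf1 values of 0, 25.3 and 162 CPM all lay below the Control values of 429, 388 and 408, and the log2 difference was -1.80 ± 0.59 (SE, adjusted p = 0.481, and -3.89 without Nxf1 replicate 3). CCDC57, a centrosomal protein gene, had 1, 21 and 18 tags against 3, 17 and 16, or 134 ± 39.3 CPM (SD, n = 3) against 410 ± 37.8 (SD, n = 3). DDX46, an RNA helicase of the early spliceosome, had 2, 20 and 20 against 4, 19 and 14. HS6ST2, a heparan sulfate sulfotransferase gene, had 0, 20 and 34 against 3, 19 and 18. In all 3 of these genes the CPM values did not overlap, and introns held 92.5%, 68.4% and 96.3% of their Nxf1 transcript tags.

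KAZN, GNGT1, DNAH14 and RSRC1, with log2 differences of -1.07, -1.09, -0.91 and -0.97, were likewise below every Control library in CPM. Single libraries weighed on them, as GNGT1 was at -0.14 without Control replicate 3 and KAZN at -1.97 without Nxf1 replicate 3. NEAT1, the lncRNA that builds paraspeckles, had 8, 105 and 93 Nxf1 tags and 19, 65 and 49 Control tags. In CPM every Nxf1 value was below every Control value, at 987, 886 and 520 against 2715, 1401 and 1331 (log2 difference -0.95 ± 0.51, SE, adjusted p = 0.770). RAPGEF6 was lower by -1.01, with 1, 28 and 47 tags against 1, 15 and 34, and without Control replicate 3 the value was 0.17. The base of this gene shown above held 24 of the 34 tags in that library.

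**Figure D3:**
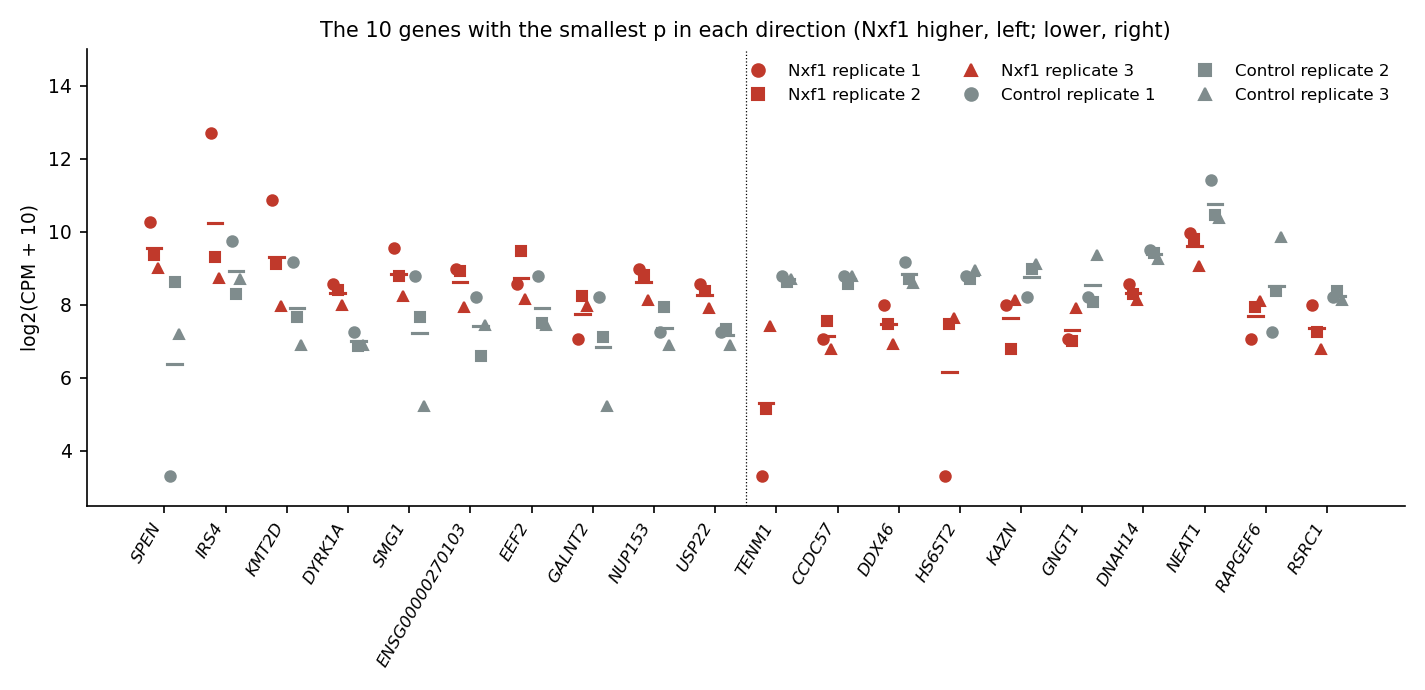
Tags of the 20 genes with the smallest p, as log2(CPM + 10) by library, with those higher with Nxf1 on the left and those lower on the right. Points are libraries and bars are means of 3 log values. DYRK1A, NUP153 and USP22 have all Nxf1 points above the Control points, IRS4 and SMG1 do not, and CCDC57, DDX46 and NEAT1 have all Nxf1 points below.

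Gene length ordered the differences between Nxf1 and the Control. Among the protein-coding genes tested, the median log2 difference was 1.41 for the 1 gene under 10 kb, 0.62 for the 16 genes of 10 to 30 kb, 0.32 for the 62 genes of 30 to 100 kb, 0.14 for the 76 genes of 100 to 300 kb and -0.19 for the 134 genes over 300 kb. Values above 0 made up 87.5%, 75.8%, 63.2% and 30.6% of the last 4 classes. The median of all 314 genes was 0.01. Without replicate 1 of both groups, which left 1698 genes, the medians of these classes were 0.48, 0.31, 0.25, 0.08 and -0.20, beside 0.05 for all. At an unadjusted p under 0.05, 67 of these genes were higher with Nxf1 (3.95%) and 61 lower (3.59%), and of the 339 genes over 300 kb, 0 were higher and 14 lower. No gene of this fit passed an adjusted p of 0.05 (edgeR). The libraries gave the same order, as genes over 100 kb took 37.4%, 38.3% and 47.9% of protein-coding tags with Nxf1 and 43.2%, 48.2% and 54.1% in the Control. The share was lower with Nxf1 at each number, and the groups overlapped (exact permutation test, p = 0.2).

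**Figure D4:**
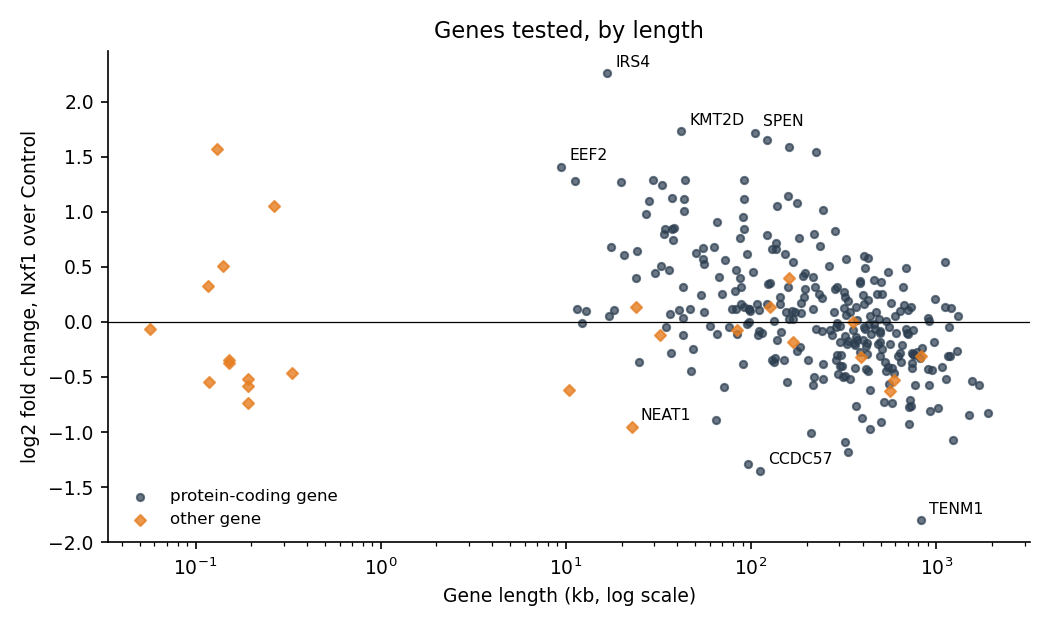
Log2 fold change of Nxf1 over the Control (edgeR, TMM scale) for the 314 genes tested, against gene length in kb on a log axis. Each point is a gene. Medians for protein-coding genes go from 0.62 at 10 to 30 kb to -0.19 over 300 kb.

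A fit over all genes with at least 10 tags in the 6 libraries took in 7609 genes. Such a filter passes more readily the genes high in the deeper Nxf1 libraries, so its median of 0.30 (0.26 with the 284 genes at 0 in all Control libraries set at the bound that 3 tags over the group give) is the level against which lists are to be read. In it 409 genes were higher at an unadjusted p under 0.05 (5.38%) and 65 lower (0.854%), and 0 passed an adjusted p of 0.05. Of the 409, 284 were at 0 in every Control library. Such genes could pass the filter through the deeper Nxf1 libraries alone, so counts of higher genes in this fit describe it and support no difference. Of all genes in it, 62.95% lay above 0.

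Parts of genes were tested in the same way as genes. Only CDS, intron and non-coding exon parts passed the filter on low counts, so this fit held no 3′ UTR or 5′ UTR part. Of 148 gene parts tested, 0 passed (0%, edgeR). At an unadjusted p under 0.05, 5 were higher with Nxf1 (3.38%) and 2 lower (1.35%), and none had all its Nxf1 CPM values above the Control (0%) against 30 with all below (20.3%). The 7 CDS parts had a median log2 difference of 1.42 and 6 lay above 0, the 127 intron parts had -0.04 with 61 above 0, and the 14 non-coding exons -0.08. These values are relative to the TMM scale, which shifted the median of all parts by 0.50, from -0.51 by CPM. By CPM 31 of the 148 parts lay above 0, and by the fit 74 did. The CDS of KMT2D had 11, 48 and 32 Nxf1 tags and 3, 4 and 4 Control tags (2.12 ± 0.77, SE, adjusted p = 0.621). That of IRS4 had 31, 42 and 38 against 3, 7 and 11 (2.47 ± 0.93, SE, adjusted p = 0.621), but it was 0.62 without Nxf1 replicate 1. The CDS of HUWE1, a large ubiquitin ligase, had 3, 46 and 30 against 4, 6 and 2, and that of PRKDC, the DNA-dependent protein kinase, 5, 67 and 41 against 5, 16 and 5. Their log2 differences were 1.42 (0.92 without Control replicate 3) and 0.93 (0.49 to 1.40 with 1 library left out). For both, replicate 1 was higher in the Control than with Nxf1 in CPM.

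The intron parts of CAPN15, MICAL3 and MLLT10 were above the Control by 1.08, 0.90 and 1.04 (log2), and their CPM ranges overlapped. CAPN15 ran from 0.64 without Control replicate 3 to 3.22 without Control replicate 2, and MLLT10 was at 0.53 without Control replicate 3. The introns of DNAH14, LRP1B and SLIT2 had all their Nxf1 values below the Control, by -0.85, -0.75 and -0.68. Those of DDX46, CCDC57, HS6ST2 and DIAPH2, at -1.36, -1.12, -0.97 and -0.70, had them below as counted, but the 0 tags in Nxf1 replicate 1 allow up to 370 CPM, which is above at least 1 Control value of each. Over fits with libraries left out, replicate 1 of both groups included, SLIT2 ran from -1.19 to -0.45 and CCDC57 from -1.64 to -0.9. HS6ST2 was at -0.61 without Control replicate 3, and DIAPH2 at -1.20 without Nxf1 replicate 3. SLIT2, which codes for an axon guidance ligand, had 1, 54 and 141 intron tags with Nxf1 and 9, 60 and 37 in the Control, or 123, 456 and 789 CPM against 1286, 1294 and 1005. The introns of BCAS3 and RAPGEF6, at -0.67 and -0.88, overlapped, and without Control replicate 3 they were at -0.34 and 0.20.

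With at least 10 tags, 6830 gene parts could be fitted. Here the median log2 difference was 1.65 for 833 3′ UTRs, 1.14 for 790 CDS parts, 0.40 for 165 non-coding exons and 0.16 for 5027 intron parts, beside 0.39 for all. With parts at 0 in every Control library at their bound the medians were 0.82, 0.80, 0.32 and 0.13, beside 0.28. At an unadjusted p under 0.05, 519 parts were higher (7.6%) and 41 lower (0.6%). The 3′ UTRs had 208 higher and 6 lower, and the CDS parts 136 higher and 0 lower. Of these higher parts 182 of the 3′ UTRs and 101 of the CDS parts were at 0 in every Control library, as were 432 of the 519, and they had passed the filter through the Nxf1 libraries alone. Without replicate 1 of both groups 1079 parts were tested, of which 41 were higher (3.8%) and 50 lower (4.63%). Of the 50 lower parts, 43 were introns. The 32 CDS parts then had a median of 1.16, the 20 3′ UTRs 1.02 and the 980 intron parts -0.01. Parts could pass this filter too through the Nxf1 libraries alone, as 2 CDS parts without Control tags did. No part passed an adjusted p of 0.05 in either fit (edgeR).

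Gene lists were examined next, and their part in the region shares was not tested. mRNAs of cytosolic ribosomal proteins, which are short, abundant and exported in bulk, were above the level of all genes in the fits, though not in every library. In the fit with at least 10 tags 68 of 85 members were tested, 62 had values above 0, 20 were higher and 0 lower at an unadjusted p under 0.05, and the median was 1.18 (0.99 with members at 0 in the Control at their bound). Of the 20, 9 were at 0 in every Control library. Over all genes of this fit 5.38% were higher and 62.95% above 0, with a median of 0.30. No member passed an adjusted p of 0.05 (edgeR). Summed over the list, Nxf1 held 2591, 8411 and 4134 CPM and the Control 4144, 2975 and 2011. Nxf1 was thus above the Control in replicates 2 and 3, by 2.83 and 2.06 times, and below it in replicate 1, where the sums rested on 21 and 29 tags. Exons held 79.6% and 69.0% of the transcript tags of these genes in Nxf1 replicates 2 and 3, and 41.6% and 55.7% in Control replicates 2 and 3.

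RPS16, of the small ribosomal subunit, had 1, 35 and 31 Nxf1 tags and 1, 2 and 1 Control tags, and its log2 difference was 2.34 ± 0.87 (SE, adjusted p = 0.785, edgeR). RPL13, of the large subunit, had 1, 32 and 21 against 0, 0 and 2. RPLP1, of the ribosomal stalk, had 0, 23 and 11 against none in the Control. The most tagged member, RPS19, had 0, 43 and 30 against 1, 5 and 5, at 1.02 (unadjusted p = 0.155). In all 4 the Nxf1 libraries 2 and 3 were above the Control libraries of the same number in CPM, and replicate 1 held 0 or 1 tag in each group. Ribosomal protein genes have many processed pseudogenes, so the unique mapping of their reads makes the counts uncertain. Without replicate 1, 8 members were tested, 7 lay above 0 and the median was 2.07, beside 0.05 for all genes. Members could pass this filter too through the Nxf1 libraries alone, as RPL13 did with 0 and 2 Control tags. These values therefore describe the fit and support no difference.

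Replication-dependent histone mRNAs, which lack introns and a poly(A) tail, were above the Control in every Nxf1 library. Their sum was 494, 1847 and 744 CPM with Nxf1 and 429, 237 and 326 CPM in the Control. These values did not overlap, but those of replicate 1 rested on 4 and 3 tags. Of 64 genes, 39 had tags and 13 could be fitted, of which 12 lay above 0, 6 were higher and 0 lower at an unadjusted p under 0.05, beside 62.95% of all genes above 0 and 5.38% higher. Of the 6, 5 were at 0 in every Control library. H4C3, a histone H4 gene, had 0, 28 and 13 Nxf1 tags, and H1-2, a linker histone gene, had 0, 23 and 17, both with no Control tag. H2BC11 had 0, 8 and 3 against 1, 0 and 3, which in CPM was lower with Nxf1 in replicates 1 and 3. Histone genes are near-identical copies, and their counts are likewise uncertain.

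Other mRNAs without introns also summed above the Control in every library, at 1727, 1080 and 554 CPM against 429, 539 and 353. The sums of replicate 1 rested on 14 and 3 tags, and the lowest Nxf1 value of 554 was close to the highest Control value of 539. SOX4, a transcription factor gene, had 4, 19 and 23 tags against 1, 4 and 1, and FOXC1, a forkhead factor gene, had 0, 19 and 10 against 0, 1 and 0. PURB, a gene for a single-stranded nucleic acid binding protein, had 7, 15 and 16 against 0, 5 and 4. SOX12 was lower in the fit with at least 10 tags, at -0.94, with 0, 4 and 6 tags against 0, 7 and 0. CEBPA had too few tags for that fit, with 0, 2 and 0 against 1, 0 and 3. Of the 18 genes, 9 could be fitted and 8 lay above 0, beside 62.95% of all genes in that fit. The median was 1.27 (1.19 with the 1 member at 0 in the Control at its bound), beside 0.30 for all genes (0.26). Without SOX4 the sum was 1234, 920 and 425 CPM against 286, 453 and 326, where Nxf1 replicate 3 lay below Control replicate 2.

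The nuclear lncRNAs of the list, which leaves out XIST, were on the other side. MALAT1, NEAT1 and 9 further lncRNAs summed to 3455, 3678 and 2629 CPM with Nxf1 and 5716, 5950 and 4103 CPM in the Control. The groups did not overlap, and the ratio within numbers was 0.604, 0.618 and 0.641. MALAT1, a lncRNA of nuclear speckles, had 6, 151 and 160 tags against 8, 109 and 61, with a log2 difference of -0.62 ± 0.51 (SE, adjusted p = 0.985). Without MALAT1 the sums were 2714, 2404 and 1734 CPM against 4573, 3600 and 2445. Those overlapped only in that Nxf1 replicate 1 exceeded Control replicate 3. The median over 9 members fitted was -0.36, with 3 above 0, beside 0.30 and 62.95% above 0 for all genes. TUG1, a lncRNA that is also found in the cytoplasm, went the other way with 5, 15 and 13 tags against 1, 2 and 4, at 0.81 (unadjusted p = 0.332). XIST, also a nuclear lncRNA, overlapped between the groups at 11840, 3914 and 4364 CPM against 8860, 8171 and 6276 (log2 difference -0.12). The sums above therefore describe the list only. lncRNAs that host snoRNAs summed to 864, 1510 and 800 CPM with Nxf1 and 1143, 2264 and 897 CPM in the Control, lower at each number and overlapping.

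**Figure D5:**
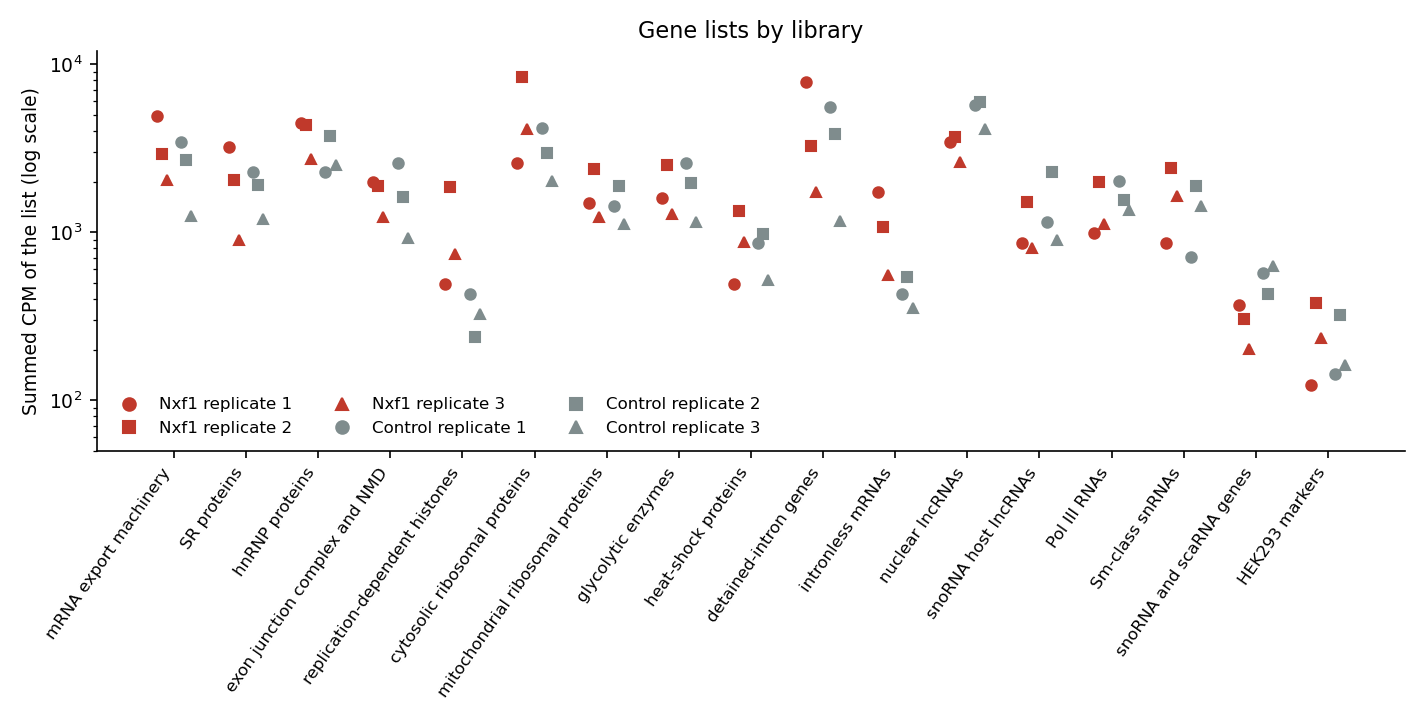
Summed CPM of 17 gene lists by library, on a log axis. Each point is a library. Nxf1 points lie above all Control points for histones and intronless mRNAs. They lie below them for nuclear lncRNAs and for snoRNA and scaRNA genes, and the groups overlap for the other lists. Some sums of replicate 1 (Nxf1 and Control) rest on few tags. Among these were 4 and 3 for histones, 14 and 3 for intronless mRNAs and 3 and 4 for snoRNA and scaRNA genes. The nuclear lncRNA list does not hold XIST.

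mRNAs of the export machinery itself summed to 4935, 2927 and 2036 CPM with Nxf1 and 3430, 2673 and 1250 in the Control, higher at each number and overlapping. Of 30 genes 20 could be fitted, 15 lay above 0, and 2 were higher at an unadjusted p under 0.05 (over all genes 62.95% above 0 and 5.38% higher), namely NXF1 and ALYREF, which codes for the TREX adaptor and had 0, 10 and 4 tags against none. DDX39B, the helicase of TREX, had 8, 52 and 37 against 8, 29 and 3. THOC2, a scaffold of the THO complex, had 4, 25 and 20 against 2, 15 and 8. Neither moved beyond its error, at -0.14 and -0.44 (unadjusted p = 0.828 and 0.507). CHTOP, the gene of the other TREX subunit, had 3, 20 and 9 against 0, 1 and 2.

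The mRNAs of RNA-binding proteins were close to the level of all genes. The median was 0.17 for 12 SR protein genes, 0.47 for 22 hnRNP genes and 0.00 for 13 genes of the exon junction complex and nonsense-mediated decay, beside 0.30 for all genes. It was 0.05 for 14 genes with detained introns, 0.58 for 13 glycolytic enzymes, 0.39 for 24 mitochondrial ribosomal proteins and 0.78 for 11 heat-shock proteins. Of these 7 lists, at an unadjusted p under 0.05, members were higher in the hnRNP list (1), the exon junction and decay list (2), the mitochondrial ribosomal list (4, of which 3 were at 0 in the Control, and 1 lower) and the heat-shock list (1), beside 5.38% higher and 0.854% lower over all genes. Summed CPM overlapped between the groups in all 7.

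Small RNAs of RNA polymerase III were examined as intervals, whatever host gene they lie in. RN7SL2 and RN7SL3, both copies of the signal recognition particle RNA, had 0, 26 and 33 and 1, 7 and 26 Nxf1 tags. The Control had 1, 2 and 0 tags for RN7SL2 and none for RN7SL3. RN7SL2 was above the Control of the same number in replicates 2 and 3. For RN7SL3 the Nxf1 value exceeded what a Control count of 0 allows in replicate 3 alone, at 145.5 CPM against 81.5. VTRNA1-1, a vault RNA, had 10, 67 and 70 tags against 11, 11 and 7, or 2.38 and 2.06 times the Control CPM in replicates 2 and 3 and 0.785 times in replicate 1. Its neighbour VTRNA1-2 went the other way, with 12, 46 and 35 against 24, 25 and 10, and was lower in CPM at each number. VTRNA1-3 had 0, 19 and 20 against 1, 1 and 0.

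RMRP, the RNA of RNase MRP, had 3, 71 and 46 Nxf1 tags against 1, 16 and 5. RNY4, a Y RNA, had 0, 13 and 15 against 0, 1 and 1. RNY5, another Y RNA, had 11, 40 and 29 against 13, 36 and 25, which was 0.731, 0.435 and 0.239 times the Control CPM. RN7SK, the scaffold of the complex that holds P-TEFb inactive, had 4, 104 and 83 against 9, 49 and 31, lower at each number at 0.384, 0.831 and 0.551 times. Members of a family, such as the vault RNAs and the Y RNAs, therefore lay on different sides of the Control, and the difference between members was not tested. As genes counted alone, 17 of the 19 Pol III RNAs were matched by symbol and their summed CPM overlapped between groups. The listed spliceosomal snRNAs summed to 864, 2413 and 1645 CPM against 715, 1876 and 1440. The sums of replicate 1 rested on 7 and 5 tags, and the list held no tagged entry of U2 snRNA sequence. RNU4-2, the U4 snRNA, had 2, 71 and 62 tags against 3, 18 and 11. In the gene fit RNU4-2 and RNU5F-1 were above 0, at 0.51 and 0.33 (log2). The U2 entries RNU2-59P, RNU2-61P and RNU2-64P went the other way, at -0.52, -0.58 and -0.74. The CPM ranges of each overlapped between the groups. Copies of these RNAs share sequence, and unique mapping leaves their counts uncertain.

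Bins of 10 kb, counted by strand without regard to genes, gave loci already named and a few others. Of 81 bins 0 passed (0%, edgeR), 3 were higher and 3 lower at an unadjusted p under 0.05 (3.7% each), 1 had all Nxf1 CPM values above the Control (1.23%) and 5 had them all below (6.17%). The bin above was that of RN7SL2 and RN7SL3 (chromosome 14, 50320001 to 50330000, minus strand), with 2, 34 and 60 Nxf1 tags against 1, 3 and 0 and a log2 difference of 3.04 ± 0.81 (SE, adjusted p = 0.368). The bin of ENSG00000270103 followed at 1.78, and a bin of HELLS on chromosome 10 (96360001 to 96370000, plus strand), with 3, 39 and 24 tags against 2, 1 and 0, at 2.95. The bins of SRRM2, a protein of nuclear speckles, and of RMRP were at 1.58 and 1.04, and for SRRM2 Nxf1 replicate 1 stood alone at 2344 CPM. Lower bins were in NEAT1 (chromosome 11, 65200001 to 65210000, plus strand, -1.29 ± 0.46, SE, adjusted p = 0.414), in XIST (-1.14, where the whole gene was at -0.12 with an unadjusted p of 0.832), at the heavily tagged base of chromosome 5 (-0.73), and at RNU2-2P (-0.69) and RNU2-6P (-0.72), entries of U2 snRNA sequence.

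The sequence at the crosslinked base did not set Nxf1 apart. Uracil was at that base for 44.3%, 52.5% and 53.4% of Nxf1 tags and 45.0%, 54.7% and 52.1% of Control tags (exact permutation test, p = 0.8). The most frequent pentamer centred on the base was UUUUU in both groups, at 3.54%, 6.47% and 9.67% of Nxf1 tags and 5.17%, 8.30% and 10.7% of Control tags. Of 873 pentamers tested 0 passed (0%, edgeR), 8 were higher and 3 lower at an unadjusted p under 0.05 (0.916% and 0.344%), 46 had all Nxf1 CPM values above the Control (5.27%) and 11 all below (1.26%). The pentamer with the smallest p among those higher was GCCGC, with 3, 79 and 78 Nxf1 tags and 1, 7 and 10 Control tags (log2 difference 1.28 ± 0.42, SE, adjusted p = 0.999). Next came GCCCU with 1.16, then AGGAC with 0.93. Lower with the smallest p was AUAGG, with 3, 20 and 45 Nxf1 tags and 2, 18 and 19 Control tags (-1.03 ± 0.40, SE), followed by GAAGG with -0.87.

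The libraries did not sort by protein across genes. Over 790 genes with at least 60 tags, Pearson correlations of log2(CPM + 10) were 0.38, 0.24 and 0.58 between Nxf1 libraries and 0.33, 0.20 and 0.48 between Control libraries. Between an Nxf1 and a Control library they went from 0.11 to 0.63. The highest of all, 0.63, joined Nxf1 replicate 3 to Control replicate 2. Genes are not independent replicates, and the points share gene length and depth, so these values are descriptions only.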

How the data were processed

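Crosslinked bases of Nxf1-FLAG and of the FLAG-only Control were taken from 1 deposited file per library. The values are counts of deduplicated reads (tags) per base and strand, made by the authors. Per the labels and the study's methods, phiX reads were removed with Bowtie 1.1.2, random barcodes were extracted with UMI-tools 0.5.3, reads were aligned to hg19 with STAR 2.4.2a and only uniquely mapped reads were kept, and lanes of a library were merged. Runs were grouped by their labels, 8 runs and 3 libraries in each group, and depths are given with the results. Per-sample columns left unused numbered 0. Pooled files were not used here.

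Tags were annotated by strand with GRCh37 and GENCODE release 44 mapped to it (63544 genes, 19510 protein-coding, 647 readthrough genes and 249 second entries of a symbol left out). The mitochondrial chromosome was left out. Genes, parts of the canonical transcript, 10 kb bins and pentamers were tested with edgeR 4.0.16 in R 4.3.3 (quasi-likelihood F-test, TMM, filterByExpr, the 6 libraries, Benjamini-Hochberg, threshold 0.05). The code of the fit was first run on simulated data, with a fixed spread between libraries that was not estimated from these data. That run does not give the power of the fit here. Tags in more than 1 gene (3.56% to 4.96%) were left out of gene counts. For shares, an exact permutation test (two-sided, all 20 splits) was run with SciPy 1.17.1. DESeq2 1.42.0, other filters, scalings, sample sets, isoforms and a replicate block were tried.

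Named genes were up to 15 higher and 10 lower past the threshold, or otherwise the 10 with the smallest p in each direction, with up to 10 gene parts, 5 bins and 6 pentamers in each direction, members of 18 gene lists, and bases by tag number. Bases on chromosome 8 were left out before bases were ranked by tag number. List members named in the text were chosen after their values were seen. The groups and lists were chosen with earlier results of these data known. Leaving out replicate 1 of both groups was chosen after seeing the data.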

Additional observations from a re-analysis of the deposited data

How the results depend on the processing

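No gene, gene part, bin or pentamer passed as first fitted, and the counts stayed at 0 under most alternatives. The fit of all 12 libraries called 1 gene (STIL, lower). Leaving out 1 library gave 0 to 3 genes and 0 to 9 gene parts, with the most without Nxf1 replicate 3 (IRS4 and UCKL1 higher and TENM1 lower, and 9 parts, all higher), 1 gene (UCKL1, higher) without Control replicate 1, and 0 for bins and pentamers. At an unadjusted p under 0.05, 20 genes stood as first fitted, 474 of 7609 with at least 10 tags, 632 of 20922 with no filter beyond 1 tag, 253 of 3370 with all 12 libraries, 36 of 314 with the block and 10 of 314 by DESeq2. Fitted with the replicate number as a block, 2 genes were called (SPEN higher, TENM1 lower), 1 gene part (the KMT2D CDS), 11 bins (4 higher, 7 lower) and 2 pentamers. The bins of RN7SL2 and RN7SL3, ENSG00000270103 and HELLS (higher), and of XIST, chromosome 5 and RNU2-2P (lower) were among the 11. The numbers were not taken as pairs. The labels state no pairing, and the correlation within numbers was not above 0.1 for each. Deviations of same-numbered libraries from their group means correlated at 0.17, 0.06 and 0.29 over 314 genes. Across numbers the values went from -0.25 to 0.03, so each library correlated best with its own number. Variation that the numbers share stays in the error of the fits without the block. For the shares, the sign-flip test on the 3 within-number differences cannot give a p below 0.25, and the block changed no call there. Counting each base once, other scalings, other filters, DESeq2, and nested small RNA genes counted first made no call, and for the 24 measures counting each base once, tags of a single gene and merged isoforms changed no direction. RAPGEF6 reversed without Control replicate 3, to 0.17 for the gene and 0.20 for its introns, with ranges over left-out libraries of -1.36 to 0.17 and -1.24 to 0.20. The difference between group means also changed sign for these measures when libraries were left out, replicate 1 of both groups included, with ranges in percentage points of -4.39 to 8.55 (protein-coding), -0.450 to 0.0604 (snRNA), -0.0109 to 0.323 (misc RNA share, 0.256 at most with a single library left out), -0.0293 to 0.112 (pseudogenes), -2.21 to 1.84 (antisense), -4.56 to 3.11 (outside genes), -0.0726 to 0.947 (5′ UTR), -7.45 to 4.66 (outside transcripts), -0.657 to 2.31 (last 20% of the mRNA), -1.12 to 0.775 (within 100 nt of the 3′ splice site) and -3.35 to 2.36 (uracil), and of -0.0524 to 0.485 (log2) for the 3' UTR to CDS density. The last 20% and this density reversed without replicate 1 of both groups, to -0.657 points and -0.0361 (log2). The causes were not tested. Depth limits single genes, as 24 genes had at least 10 tags in Nxf1 replicate 1 and 11 in Control replicate 1.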
